A study of Homo sapiens with 14 samples.

Results

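The genes described here are 10 well-known human imprinted genes: H19, IGF2, MEG3, PEG3, PEG10, MEST, DLK1, CDKN1C, SNRPN and PLAGL1. They were listed by symbol as known imprinted genes, at a time when earlier results of these data were known, and matched to the Ensembl identifiers of a table of 58051 genes. All 10 were in the table, 8 had at least 1 read, and the same 8 were among the 17102 genes that passed the filter on low values (a normalized read count of at least 10 in at least 3 libraries).

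RNA was sequenced at day 25 from MGE-like progenitors derived from H9, an established human embryonic stem cell line. They model the medial ganglionic eminence (MGE), the part of the ventral forebrain that gives rise to cortical interneurons. The 14 libraries form 4 groups: wild type (WT, n = 3), a CTNNB1 knockout (KO, n = 5), a line with inducible CTNNB1 overexpression kept free of doxycycline (OE without Dox, 3 libraries), and that OE line given 0.1 µg/mL doxycycline between day 17 and day 25 (OE with Dox, n = 3). CTNNB1 encodes beta-catenin, the effector of canonical WNT signalling. All groups received SB431542 (2 µM) and LDN193189 (200 nM), blockers of TGF-beta and BMP signalling, from day 0 to day 6. All also received SHH (250 ng/mL) and the smoothened activator purmorphamine (0.3 µM) from day 10 to day 17, and grew as neurospheres until collection. The labels do not say how the knockout was made, which form of CTNNB1 was overexpressed, or whether a line was 1 clone. Doxycycline was given to no WT library, so its own effect and that of the transgene cannot be told apart, and a difference between lines cannot be told apart from a difference between clones. Nothing says that replicates came from separate differentiations, so p-values measure only the spread between these samples, which may be technical.

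An imprinted gene is expressed mainly from the copy inherited from one parent, because the other copy carries a mark, usually DNA methylation, laid down in the germ line. Many imprinted genes act in growth and in the developing brain, and they lie in clusters that share a control region. Pluripotent stem cell lines are known to gain or lose such marks in culture, and a change can be fixed in a clone. The libraries gave total reads per gene with no allele counts, so the parental origin of a transcript was not measured, and whether any difference in level reflects a change of imprint was not tested.

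Reads assigned to genes numbered between 5233270 and 5639725 per library. CTNNB1 itself checked the labels: it was at 3248 to 4393 normalized counts in WT and 2090 to 2779 in KO, and in the OE line at 3084 to 3633 without Dox and 23861 to 31290 with Dox. The KO libraries thus still held transcript from the gene. The labelled cell type was looked at through 14 MGE and forebrain genes, all of which reached 10 in every library outside OE with Dox. Their summed level was 14745 to 15164 in WT and 19747 to 25854 in KO, and in the OE line 17577 to 23750 without Dox and 6210 to 7970 with Dox. In WT most of this sum came from NES (8284 to 8328) and SOX2 (2944 to 3171), so it says little about MGE identity there. In the OE line NES was at 6826 to 8909 without Dox and 1124 to 2109 with Dox. SOX2 was at 2568 to 3160 and 2616 to 2766. In bulk samples, fewer cells of a type and less RNA per cell cannot be told apart.

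Sequences at the starts of PLAGL1 and MEST are shown because these are the members whose levels set a line or a treatment apart and whose start windows were richest in CpG, the dinucleotide that carries DNA methylation. RefSeq windows of 300 bases, running from 250 before to 50 after a transcript start on GRCh38.p14, were found for 5 of the 10 members: PLAGL1, MEST, H19, MEG3 and SNRPN. The PLAGL1 window lies at chr6:144008210-144008509 on the minus strand, holds 39 CpG and is 75.7% G or C. Of all 35116 windows, 8.71% held as many CpG. The MEST window lies at chr7:130491835-130492134 on the plus strand, holds 25 CpG and is 70.3% G or C, and 32.0% of all windows held as many. Each sequence is given 5′ to 3′ on the gene's strand with every CpG in capitals.
PLAGL1: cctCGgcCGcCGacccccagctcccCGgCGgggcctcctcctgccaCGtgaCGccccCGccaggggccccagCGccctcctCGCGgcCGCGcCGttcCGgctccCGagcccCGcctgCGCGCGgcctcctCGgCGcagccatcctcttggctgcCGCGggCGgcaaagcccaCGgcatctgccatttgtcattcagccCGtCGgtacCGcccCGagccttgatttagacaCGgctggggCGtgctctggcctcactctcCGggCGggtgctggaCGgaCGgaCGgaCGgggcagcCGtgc
MEST: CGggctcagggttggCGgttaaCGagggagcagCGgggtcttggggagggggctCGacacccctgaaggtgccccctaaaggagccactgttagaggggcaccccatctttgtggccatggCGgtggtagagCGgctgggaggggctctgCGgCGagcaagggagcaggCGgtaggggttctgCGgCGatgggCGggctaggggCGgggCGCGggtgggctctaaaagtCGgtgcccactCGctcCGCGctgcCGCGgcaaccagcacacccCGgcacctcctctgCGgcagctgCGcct
The core letters of the TCF/LEF motif, CTTTGAT, were searched on both strands (ATCAAAG on the other). They were in 0 of the 18 windows of the 5 members and in 2.62% of all windows. No match says only that these letters are not in these windows.

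An intron of MEST also holds the microRNA gene MIR335, whose mature products are shown because a reader following MEST would look for them. The arm miR-335-5p (chr7:130496126-130496148) and the arm miR-335-3p (chr7:130496162-130496183) are given 5′ to 3′ from RefSeq with the seed, bases 2 to 8, in capitals.
miR-335-5p: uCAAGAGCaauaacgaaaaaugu
miR-335-3p: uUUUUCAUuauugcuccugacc
These libraries do not measure mature microRNAs. The MIR335 row was listed at 0 in all 14 libraries.

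Among the 8 tested members, PLAGL1 set WT apart from the edited lines, PEG10 was highest in KO, and PEG10, MEST, DLK1 and IGF2 changed with doxycycline. In KO against WT, 2 of 8 members rose (PEG10 and MEST) and 1 fell (PLAGL1), against 13.8% of all genes called, 6.64% higher and 7.15% lower. In OE without Dox against WT none rose and 1 fell (PLAGL1), against 5.74% called, 3.43% higher and 2.32% lower. In OE with Dox against OE without Dox 1 rose (IGF2) and 4 fell (PEG10, MEST, DLK1 and PLAGL1), against 25.7% called, 12.8% higher and 12.9% lower. In KO against OE without Dox 1 rose (PEG10) and none fell, against 2.11% called, 0.351% higher and 1.75% lower. In OE with Dox against WT none rose and 4 fell (PLAGL1, PEG10, MEST and SNRPN), against 20.5% called, 10.4% higher and 10.1% lower. A call is an adjusted p under 0.05 in limma on log2(normalized count + 1). The median log2 fold over the 8 members was 0.44, 0.33, -0.55, 0.23 and -0.57 in these 5 comparisons, beside -0.02, -0.03, 0.02, 0.00 and 0.01 over all genes. Comparisons that share a group are not independent: WT enters 3 of them, OE without Dox 3, and OE with Dox and KO 2 each.

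**Figure D1:**
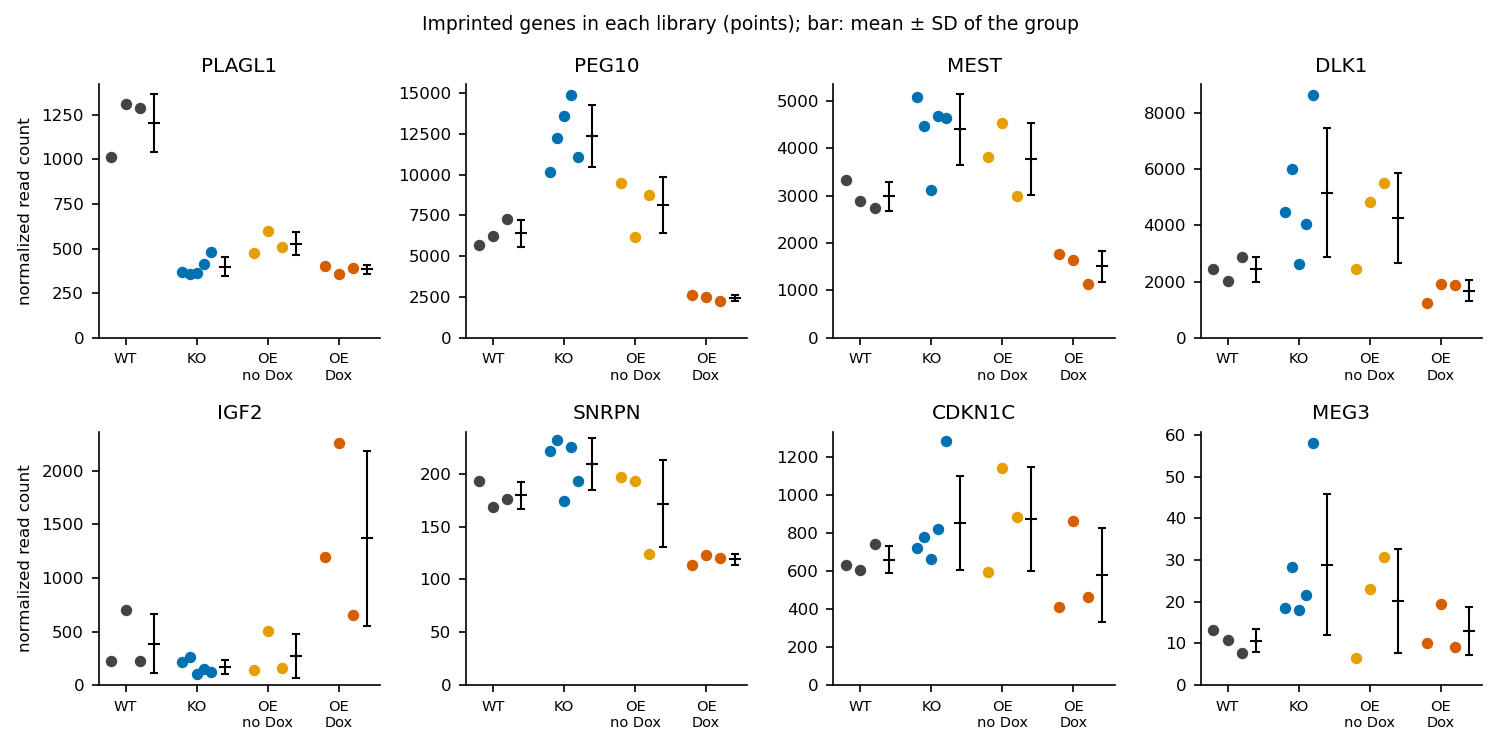
Normalized read counts (vertical axes, each starting at 0) of the 8 expressed imprinted genes in each of the 14 libraries (points), by group, with the mean ± SD of each group as a bar. PLAGL1 stands at 1014 to 1308 in WT and at 356 to 599 in all other libraries, while PEG10, MEST and SNRPN are low in OE with Dox.

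PLAGL1 (ENSG00000118495, hg38 chromosome 6, 143940300 to 144064599, minus strand) encodes a zinc finger transcription factor that restrains growth and regulates other imprinted genes. It was the member that separated WT from every other library. Its normalized counts were 1014, 1308 and 1288 in WT and 367, 360, 362, 414 and 483 in KO, and in the OE line 476, 599 and 506 without Dox and 401, 356 and 394 with Dox. All 11 libraries of the edited lines, at 356 to 599, lay below all 3 WT libraries. KO stood at 397 ± 53.1 (SD, n = 5) against 1203 ± 165 in WT (n = 3), a log2 fold of -1.60 (SE 0.13, limma adjusted p = 1.5e-07). OE without Dox stood at 527 ± 63.8 (n = 3), a log2 fold of -1.19 against WT (SE 0.15, limma adjusted p = 8.7e-05), with CTNNB1 at 3084 to 3633 in that group and 3248 to 4393 in WT. The lower level of PLAGL1 was also seen in the overexpression line grown without doxycycline. With doxycycline the level was lower again, at 383 ± 24.1 (n = 3), a log2 fold of -0.45 (SE 0.15, limma adjusted p = 0.030). That smaller difference was not called in 6 of 18 alternatives, with adjusted p between 0.0158 and 0.297, the highest with the second libraries of WT and both OE groups left out. KO and OE without Dox overlapped (log2 fold -0.41, 95% interval -0.69 to -0.13, limma adjusted p = 0.177). Against WT, PLAGL1 was called in all 20 alternatives for KO and in all 18 for OE without Dox.

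HYMAI, a non-coding RNA that starts at the same imprinted promoter and shares part of the 4.51% of PLAGL1 exon bases that overlap other genes, was at 13.0 to 32.2 in WT and 8.09 to 20.3 in KO, and in the OE line at 9.25 to 15.5 without Dox and 3.72 to 8.30 with Dox. Its ranges in KO and OE without Dox overlapped WT (log2 fold -0.73 and -0.77, limma adjusted p = 0.237 and 0.341), while OE with Dox lay below WT with no overlap (-1.64, adjusted p = 0.0073). The genes whose levels followed PLAGL1 most closely over the 14 libraries were KEL (Pearson r of log2 levels 0.976) and ZNF37A (0.965). KEL, the Kell blood group gene, was at 54.0 to 101 in WT and at 1.86 to 12.0 elsewhere, and ZNF37A, a zinc finger gene, at 78.0 to 101 in WT and at 1.84 to 8.33 elsewhere. Neither is on the list of imprinted genes. Both share with PLAGL1 a step between WT and the other 11 libraries, and the correlation rests on that step.

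PEG10 (ENSG00000242265, chromosome 7, 94656325 to 94669695, plus strand) is a paternally expressed gene derived from a retrotransposon, with a gag-like protein. It had the highest level per length of the 10 members in every group. Its counts were 5680, 6244 and 7258 in WT and 10143, 12239, 13568, 14897 and 11096 in KO, and in the OE line 9483, 6184 and 8776 without Dox and 2609, 2470 and 2276 with Dox. All 5 KO libraries lay above WT and above OE without Dox, and all 3 OE with Dox libraries lay below every other library. KO was 1.94 times WT (log2 fold 0.95, SE 0.15, limma adjusted p = 0.000165), and OE with Dox fell to 0.301 of OE without Dox (log2 fold -1.71, SE 0.16, limma adjusted p = 3.1e-07). Both were called in all alternatives run. KO was also above OE without Dox (log2 fold 0.61, SE 0.15, limma adjusted p = 0.029), a call lost in 7 of 20 alternatives, with adjusted p between 0.0084 and 0.391. Without the second library of OE without Dox, the lowest of its group, that log2 fold was 0.43 (adjusted p = 0.278).

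SGCE, the sarcoglycan gene that starts beside PEG10 on the opposite strand and is also paternally expressed, was not called in any of the 5 comparisons. It was at 224 to 305 in WT and 261 to 390 in KO, and in the OE line at 207 to 277 without Dox and 182 to 279 with Dox, and these ranges overlapped in each comparison. Its log2 folds were 0.34 in KO against WT (95% interval -0.01 to 0.70) and -0.17 with doxycycline (-0.57 to 0.23). PPP1R9A, a neurabin gene of the same cluster, was higher in KO (508, 450, 573, 503 and 550) than in WT (324, 441 and 355), with a log2 fold of 0.48 (SE 0.12, limma adjusted p = 0.014), and higher in OE without Dox than in WT (0.52, adjusted p = 0.033). The first of these calls was lost without the first WT library (adjusted p = 0.0821) or without the third (0.0641), in a range of 0.00338 to 0.0821 over alternatives. The call in OE without Dox was lost in 6 of 18 alternatives, with adjusted p between 0.00848 and 0.131, among them the fits without the first (0.118) or the third (0.114) WT library and without the first (0.111) or the third (0.131) OE without Dox library.

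MEST (ENSG00000106484, chromosome 7, 130486171 to 130506465, plus strand) encodes a hydrolase-like protein of embryonic mesoderm and brain and is expressed from the paternal copy. Its counts were 3322, 2891 and 2744 in WT and 5078, 4472, 3128, 4692 and 4640 in KO, and in the OE line 3810, 4525 and 2992 without Dox and 1761, 1637 and 1136 with Dox. Every OE with Dox library lay below every other library, while the third KO library and the third OE without Dox library lay within WT. With doxycycline MEST fell to 0.400 of its level in OE without Dox (log2 fold -1.33, SE 0.19, limma adjusted p = 4.0e-05), and OE with Dox was at 0.506 of WT (95% interval of the log2 fold -1.41 to -0.60, limma adjusted p = 0.00081). Both calls held in all 18 alternatives run. The rise in KO against WT was smaller (log2 fold 0.55, SE 0.17, limma adjusted p = 0.040) and was lost in 8 of 20 alternatives, with adjusted p between 0.00743 and 0.165.

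The 2 genes most like MEST were its processed pseudogenes MESTP1 (r = 0.992) and MESTP3 (r = 0.984), at 113 to 420 and 112 to 503. Near-identical copies can share reads, so part of these counts may belong to MEST and part of MEST to them. On the opposite strand, COPG2 shares exon bases with MEST and stood at 518 to 782 over all libraries, with no step in OE with Dox (595 to 708). The strand setting of the counting is not given, so reads of MEST and of its antisense neighbours cannot be told apart over the 27.6% of MEST exon bases that they share. CPA4, a carboxypeptidase gene downstream, was low, at 0.929 to 26.5. It was not called in any of the 5 comparisons.

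The falls of PEG10 and MEST with doxycycline came with lower summed levels of neuronal and forebrain genes. The summed level of 13 neuronal markers, all at 10 or more in every library, was 18102 to 21661 in OE without Dox and 6799 to 8675 in OE with Dox. It was 10177 to 12076 in WT and 20456 to 23838 in KO, so the order of the groups by the median of this sum was that of the PEG10 means. The summed level of the 14 MGE and forebrain genes was also lower with doxycycline, as given above. Of the 13 neuronal markers, 11 were called lower with doxycycline and 1 higher, against 12.9% and 12.8% of all genes. GAP43 went the other way from the sum, from 778 to 953 without doxycycline to 1368 to 2053 with it. Of the 14 MGE and forebrain genes, 12 were called lower and 0 higher. The part of these cell-type markers in the levels of PEG10 and MEST was not tested.

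**Figure D2:**
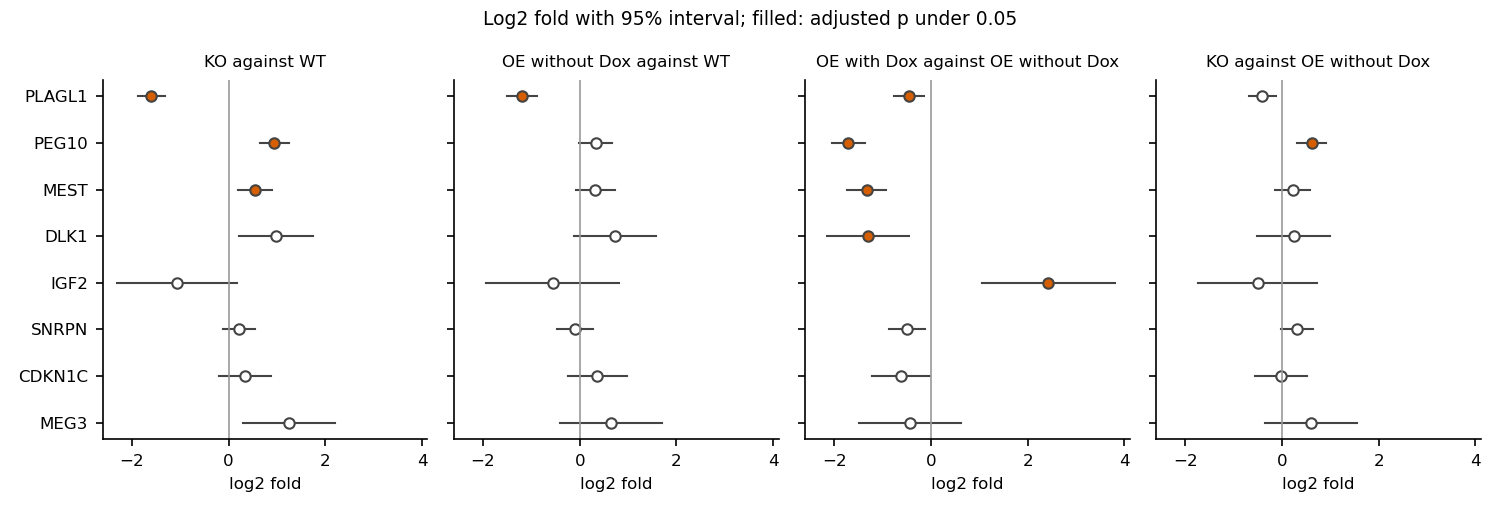
Log2 fold (horizontal axis, of normalized count + 1) with its 95% interval from limma for the 8 tested members in 4 comparisons, filled where the adjusted p is under 0.05. PLAGL1 lies left of 0 in both comparisons with WT (-1.60 and -1.19), and IGF2 lies at 2.43 with doxycycline while PEG10, MEST, DLK1 and PLAGL1 lie left of 0.

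DLK1 and MEG3 lie in 1 imprinted cluster and are expressed from opposite parental copies. DLK1 (ENSG00000185559, chromosome 14, 100725705 to 100738224, plus strand) encodes a membrane protein related to Notch ligands and is paternally expressed. Its counts were 2444, 2005 and 2893 in WT and 4488, 6015, 2636, 4041 and 8651 in KO, and in the OE line 2459, 4833 and 5508 without Dox and 1236, 1911 and 1884 with Dox. OE with Dox lay below all other libraries, while the third KO library and the first OE without Dox library lay within WT. DLK1 fell with doxycycline to 0.393 of OE without Dox (log2 fold -1.29, SE 0.39, limma adjusted p = 0.027), a call lost in 6 of 18 alternatives, with adjusted p between 0.0061 and 0.11. In KO the mean was 2.11 times WT (log2 fold 0.98, SE 0.35) and did not pass in limma (adjusted p = 0.089). It did pass in edgeR (0.0249) and DESeq2 (0.0259), in a range over alternatives of 0.017 to 0.266.

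MEG3 (ENSG00000214548, chromosome 14, 100779410 to 100861031, plus strand) is a maternally expressed long non-coding RNA of the same cluster and was low in all libraries. Its counts were 13.3, 10.7 and 7.80 in WT and 18.5, 28.3, 18.0, 21.6 and 58.2 in KO, and in the OE line 6.40, 23.1 and 30.8 without Dox and 10.2, 19.5 and 9.22 with Dox. The KO libraries lay above WT without overlap, the fifth far above the others, but the difference missed the threshold (log2 fold 1.25, SE 0.45, limma adjusted p = 0.078). The counts rest on 35 reads in WT and 158 in KO, and in the OE line 66 without Dox and 42 with Dox. The library highest in DLK1 was also highest in MEG3 in KO (the fifth), OE without Dox (the third) and OE with Dox (the second), but in WT the third library was highest in DLK1 and lowest in MEG3.

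Of the other genes of this cluster, RTL1, a retrotransposon-derived paternal gene, was at 5.20 to 13.4 in WT and 12.9 to 25.1 in KO (log2 fold 1.07, limma adjusted p = 0.044, with overlap). DIO3, which encodes a thyroid-hormone-inactivating deiodinase, was at 26.5 to 93.6 in WT and 12.9 to 49.2 in KO (-0.61, adjusted p = 0.472), and its log2 fold with doxycycline was -1.11 (limma adjusted p = 0.133, and 0.0270 with the replicate number as a block). RTL1 is antisense to a non-coding transcript, and the counting strand is unknown. HCRT, the orexin precursor gene, was the gene most like DLK1 over the 14 libraries (r = 0.921), at 0.923 to 73.4.

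IGF2 (ENSG00000167244, chromosome 11, 2129112 to 2158391, minus strand) encodes a secreted fetal growth factor and is paternally expressed. Its counts were 226, 702 and 226 in WT and 211, 263, 101, 146 and 117 in KO, and in the OE line 140, 506 and 158 without Dox and 1194, 2257 and 657 with Dox. All OE with Dox libraries lay above all OE without Dox libraries, and the second WT library lay above the lowest OE with Dox library. OE with Dox was 5.11 times OE without Dox (log2 fold 2.43, SE 0.63, limma adjusted p = 0.014). That call was lost in 4 of 18 alternatives, with adjusted p between 1.55e-05 and 0.0625, among them the fits without the first (0.0625) or the third (0.0547) OE without Dox library and without the second OE with Dox library (0.0527). Against WT the rise had a log2 fold of 1.87 and missed the threshold (limma adjusted p = 0.057). It passed in edgeR (0.0199) and DESeq2 (0.03), in a range of 0.000156 to 0.19. KO was not called against WT (log2 fold -1.07, 95% interval -2.30 to 0.17, limma adjusted p = 0.279, in a range of 0.0311 to 0.656). The lowest value of both ranges came with the replicate number as a block, and the second library was the highest in IGF2 in each of the 4 groups.

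Over the 4 groups, the medians of IGF2 and of the mesenchymal marker sum took the same order. The summed level of 16 mesenchyme genes, among them collagens, LUM and TWIST1, was 1703 to 3369 in WT and 602 to 1023 in KO, and in the OE line 944 to 2868 without Dox and 5139 to 10889 with Dox. All 16 had a read somewhere in every group. At least 10 in each library was reached by 14 of 16 in OE with Dox, 9 in WT, 8 in OE without Dox and 6 in KO. Of the 14 tested, 9 were higher in OE with Dox than in OE without Dox (12.8% of all genes), 0 were lower (12.9%), and 4 were lower in KO than in WT (7.15%). The second library was the highest of its group in both IGF2 and the mesenchyme sum in WT and in both OE groups. COL3A1, a fibrillar collagen, was at 1023, 812 and 3175 in these 3 libraries. In KO they did not go together: IGF2 was highest in the second library (263) and the mesenchyme sum in the fifth (1023), where IGF2 was at 117. The second OE without Dox library was also the one with AFP at 1708, an endoderm marker at 7.25 in the lowest library of that group. With the second libraries of WT and both OE groups left out, an alternative chosen after seeing the data, the IGF2 rise with doxycycline had a log2 fold of 2.57 (limma adjusted p = 0.000315). The part of mesenchymal cells in the IGF2 level was not tested.

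**Figure D3:**
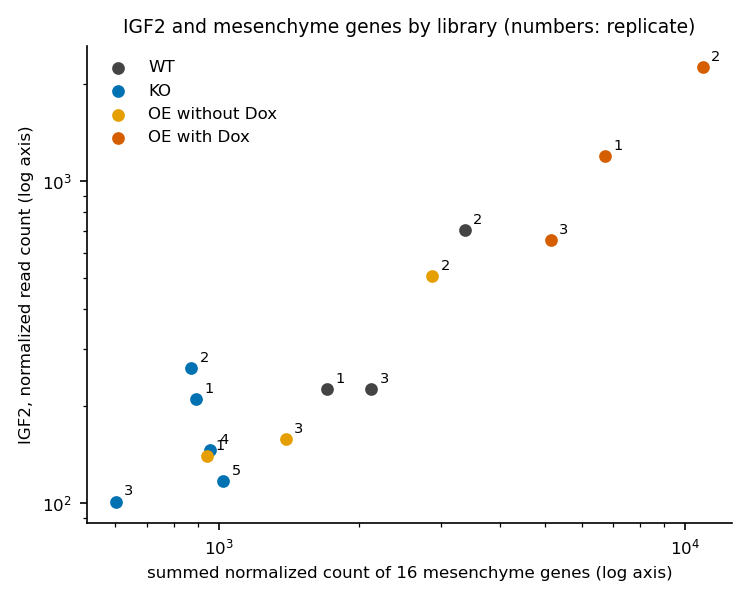
IGF2 normalized read count (vertical log axis) against the summed normalized count of 16 mesenchyme genes (horizontal log axis) in each of the 14 libraries, coloured by group and numbered by replicate. The second libraries of WT and of both OE groups are the highest of their groups on both axes, and the 5 KO libraries lie at or below 1023 on the horizontal axis.

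The endoderm and yolk sac sum also differed with doxycycline, with a median of 350 without it and 1848 with it in the OE line, where the mesenchyme sum had 1390 and 6739. In OE with Dox most of the endoderm and yolk sac sum came from FOXA1 (589 to 1098) and CXCR4 (421 or more). Only 5 of its 12 genes reached 10 in each of these libraries, and FOXA2 was at 2.77 to 28.8. AFP, ALB, APOA1, APOB, FOXA2 and TTR were highest in the second OE without Dox library. The higher sum with doxycycline thus says little about endoderm. The endoderm and yolk sac sum was 343 to 459 in WT and 223 to 406 in KO, and in the OE line 315 to 3264 without Dox and 1466 to 1872 with Dox. The choroid plexus sum was 1051 to 1954, 1516 to 2288, 1430 to 1937 and 2657 to 3750 in the same order, the pluripotency sum 1526 to 1743, 855 to 1317, 844 to 1221 and 503 to 699, and the neural crest sum 1066 to 1325, 885 to 1684, 786 to 1306 and 262 to 768. Muscle, endothelium and trophoblast sums were at most 42.6, 41.1 and 71.5 in WT and 162, 232 and 115 in OE with Dox. Their part in the levels of the imprinted genes was not tested.

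Of 22 listed ligands, receptors, binding proteins and substrates of insulin-like growth factor signalling, 17 were tested, IGF2 among them. In KO against WT none rose and 2 fell, a share near the 13.8% of all genes called. The signalling adaptor IRS1 went from 342 to 542 in WT to 104 to 209 in KO (log2 fold -1.56, limma adjusted p = 9.2e-05), and PAPPA, a protease that frees IGFs from binding proteins, from 151 to 333 to 41.6 to 74.6 (-1.85, adjusted p = 2.3e-05). The same genes were the 2 that fell in OE without Dox against WT (log2 fold -1.19 and -1.03, limma adjusted p = 0.0077 and 0.026), where 5.74% of all genes were called. With doxycycline 3 rose and 5 fell, against 12.8% of all genes higher and 12.9% lower. IGFBP7, a secreted binding protein, went from 34.5 to 38.9 without doxycycline to 323 to 693 with it (log2 fold 3.76, limma adjusted p = 8.2e-08), and IRS1 from 163 to 211 to 320 to 597 (1.25, adjusted p = 0.0010). The adaptor IRS4 fell from 125 to 243 to 31.4 to 59.0 (log2 fold -1.89, limma adjusted p = 4.8e-05) and IGF2BP3, which binds IGF2 mRNA, from 412 to 606 to 257 to 280 (-0.86, adjusted p = 0.00018). IGF2R, the receptor that clears IGF2, was at 854 to 1590 over all libraries and was not called in any comparison. For KO against OE without Dox, limma called 0 of 17, with 2 at an unadjusted p under 0.05, 0 in edgeR and 1 in DESeq2. In OE with Dox against WT 1 rose and 5 fell, against 10.4% and 10.1% of all genes. The balance depended on the method: 5 rose and 4 fell in edgeR, and 3 rose and 7 fell in DESeq2. In limma with the replicate number as a block, 4 rose and 5 fell.

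CDKN1C (ENSG00000129757, chromosome 11, 2883213 to 2885775, minus strand) encodes the cell cycle inhibitor p57 and is maternally expressed from the same chromosome arm. Its counts were 632, 606 and 742 in WT and 721, 778, 667, 820 and 1288 in KO, and in the OE line 596, 1143 and 887 without Dox and 414, 867 and 466 with Dox. Groups overlapped in every comparison and limma on all 14 libraries without a block called none. The log2 fold with doxycycline was -0.62 (SE 0.28, limma adjusted p = 0.132) and in KO against WT 0.34 (95% interval -0.20 to 0.88, adjusted p = 0.472). The difference with doxycycline was called in 3 of 18 alternatives, all in limma, with adjusted p between 0.0152 and 0.383. These were the replicate number as a block (0.0429), and the fits without the first OE without Dox library (0.046) or the second OE with Dox library (0.0152). In the same domain, KCNQ1OT1, the paternally expressed antisense RNA that silences CDKN1C in cis, was at 134 to 291 in WT and 284 to 390 in KO (log2 fold 0.66, limma adjusted p = 0.136). KCNQ1, a potassium channel gene that encloses it on the other strand, was low. It was at 3.58 to 5.68 in WT and 6.61 to 12.9 in KO, and in the OE line at 8.23 to 11.1 without Dox and 23.0 to 31.4 with Dox. It was higher in KO than in WT (log2 fold 1.08, limma adjusted p = 0.020) and rose with doxycycline (1.49, adjusted p = 0.0026). Antisense genes, KCNQ1OT1 among them, share 3.98% of KCNQ1 exon bases, where reads cannot be told apart without the strand setting. SLC22A18, a transporter gene, was at 7.56 to 28.6 and was not called.

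SNRPN (ENSG00000128739, chromosome 15, 24823637 to 24978723, plus strand) encodes a protein of the splicing machinery and marks the paternally expressed Prader-Willi region. Its counts were 193, 169 and 177 in WT and 222, 232, 175, 225 and 193 in KO, and in the OE line 198, 193 and 124 without Dox and 114, 124 and 121 with Dox. OE with Dox lay below every other library, but its highest library (123.6) and the lowest of OE without Dox (124.2) were nearly equal. OE with Dox was at 0.664 of WT (log2 fold -0.58, SE 0.18, limma adjusted p = 0.025), a call lost in 7 of 18 alternatives, with adjusted p up to 0.0798. Against OE without Dox the log2 fold was -0.49 (SE 0.18) with a limma adjusted p of 0.0504, in a range of 0.00543 to 0.25 over alternatives, and edgeR (0.0314), DESeq2 (0.025) and limma with the replicate number as a block (0.0369) called it. In KO against WT it was 0.22 (95% interval -0.12 to 0.55, adjusted p = 0.458). SNRPN shares 43.9% of its exon bases with SNURF, SNHG14 and other transcripts of its strand, so its count depends on how shared reads were assigned, which is not given.

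H19 and PEG3 had no read in any of the 14 libraries. H19 (ENSG00000130600, chromosome 11, 1995166 to 2004552, minus strand) is the maternally expressed non-coding RNA next to IGF2, and PEG3 (ENSG00000198300, chromosome 19, 56810077 to 56840728, minus strand) encodes a paternally expressed zinc finger protein. A count of 0 allows up to 3 reads in a library, which is a normalized count of 2.60 to 2.84. This covers counting error only, since reads with no molecular identifiers can be copies of 1 molecule. The annotation shares 6.15% of H19 exon bases and 50.9% of PEG3 exon bases with other genes, which leaves 3249 and 4792 bases of their own. ZIM2, USP29 and MIMT1, neighbours of PEG3, were also at 0 in all libraries. MRPL23, next to H19, was at 2.84 to 13.9, with the lowest mean (7.95) of 49 genes of mitochondrial ribosomal proteins of its family, whose median was 166. USP29, MIMT1 and MRPL23 were looked up after the zeros had been seen. Whether these zeros reflect the cells or the authors' counting was not tested.

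Compared per kb of exon, the members spanned a wide range. In WT the mean normalized count per kb was 956 for PEG10, 626 for MEST, 466 for DLK1, 266 for CDKN1C, 188 for PLAGL1, 53.9 for IGF2, 52.7 for SNRPN and 0.456 for MEG3. IGF2 and SNRPN did not differ beyond their SD there (38.5 and 3.62 per kb). In KO the order was PEG10 (1852), DLK1 (985), MEST (923), CDKN1C (345), PLAGL1 (62.0), SNRPN (61.5), IGF2 (23.4) and MEG3 (1.24), with DLK1 and MEST within the SD of DLK1 (437) and PLAGL1 and SNRPN within theirs (8.28 and 7.18). In OE without Dox it was PEG10 (1218), DLK1 (813), MEST (792), CDKN1C (353), PLAGL1 (82.2), SNRPN (50.4), IGF2 (37.5) and MEG3 (0.866). In OE with Dox the leading genes drew together, with PEG10 at 367, DLK1 at 320, MEST at 317, CDKN1C at 235 and IGF2 at 192 per kb, followed by PLAGL1 (59.8), SNRPN (35.0) and MEG3 (0.558). The lengths are those of all annotated exons, which for MEG3 come to 23224 bases over many alternative transcripts, so its level per kb is low by construction where few of them are used.

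For the remaining members, the genes of most similar level over the 14 libraries were ARNT2 (r = 0.972) and the pseudogene SERTAD4BP (0.975) for PEG10, PLPPR2 (0.909) after HCRT for DLK1, FAM114A1 (0.943) and ERMP1 (0.941) for IGF2, FOXO6 (0.924) and TIMP3 (0.915) for SNRPN, TRIM17 (0.864) and FMNL2 (0.837) for CDKN1C, and TTC4 (0.874) for MEG3. These are descriptions over libraries that share 4 groups.

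Beyond the 10 members, 52 other imprinted genes were listed, of which 50 were in the table and 38 were tested. In KO against WT 12 rose and 1 fell, against 6.64% of all genes higher and 7.15% lower. In OE without Dox against WT 7 rose and none fell, against 3.43% and 2.32%, and with doxycycline 2 rose and 13 fell, against 12.8% and 12.9%. Between KO and OE without Dox, limma called 0 of 38, with 3 at an unadjusted p under 0.05 and 1 lower in both edgeR and DESeq2. In OE with Dox against WT 3 rose and 7 fell, against 10.4% and 10.1%. The median log2 folds were 0.34, 0.29, -0.60, 0.06 and -0.20 with the comparisons in the order used for the members.

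Among the other imprinted genes named by the rule, which have a mean of at least 50, the largest difference between WT and the other lines was in ATP10A, a phospholipid flippase gene at the distal end of the Prader-Willi cluster (chromosome 15, 25677273 to 25865184). It was at 8.52, 9.83 and 4.33 in WT and 85.9, 109, 64.2, 67.4 and 56.4 in KO, and in the OE line at 84.1, 43.5 and 72.5 without Dox and 42.5, 29.7 and 44.2 with Dox. All 11 other libraries lay above WT. Against WT the log2 fold was 3.20 in KO, and in the OE line 2.99 without Dox and 2.26 with Dox (limma adjusted p = 4.0e-07, 2.3e-05 and 3.6e-05), and each was called in every alternative run.

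MKRN3, a paternally expressed ubiquitin ligase gene at the other end of that cluster (chromosome 15, 23565674 to 23630075), went the other way. It was at 140, 129 and 164 in WT and 7.39, 17.9, 18.9, 33.2 and 40.3 in KO, and in the OE line at 55.8, 76.8 and 46.2 without Dox and 103, 74.4 and 94.0 with Dox. All 11 other libraries lay below WT, KO the lowest. The fall in KO was called (log2 fold -2.76, SE 0.37, limma adjusted p = 7.3e-05). In OE without Dox against WT the log2 fold was -1.28 (adjusted p = 0.085, and 0.0195 with the replicate number as a block), and in KO against OE without Dox -1.47 (adjusted p = 0.053).

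Between them lie MAGEL2 and NDN, paternally expressed genes of the MAGE family that act in neurons. Both were higher in KO and in OE without Dox than in WT, and lower with doxycycline. MAGEL2 was at 185 to 324 in WT and 443 to 638 in KO, and in the OE line at 331 to 651 without Dox and 102 to 192 with Dox. Its log2 fold was 1.23 in KO against WT and -1.76 with doxycycline (limma adjusted p = 0.0018 and 9.6e-05). NDN was at 759 to 886, 1224 to 1594, 1057 to 1293 and 695 to 786 in the same groups, with log2 folds of 0.75 and -0.63 (limma adjusted p = 0.00016 and 0.0012). In OE without Dox against WT the log2 fold was 1.12 for MAGEL2 and 0.52 for NDN (limma adjusted p = 0.0207 and 0.0221). Those 2 calls were lost in 5 and 6 of 18 alternatives. SNHG14, the long host transcript downstream of SNRPN, fell with doxycycline from 1417 to 1590 down to 781 to 960 (-0.85, limma adjusted p = 0.00015). It was higher in KO than in WT (0.41, limma adjusted p = 0.0326), a call lost in 6 of 20 alternatives. UBE3A, a ubiquitin ligase gene on the opposite strand that is imprinted in neurons, was at 544 to 968 and was not called in any comparison. Members of 1 cluster thus differed in direction between WT and KO: ATP10A, MAGEL2, NDN and SNHG14 were higher in KO and MKRN3 was lower, while SNRPN was not called.

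NNAT, a small membrane protein gene of developing neurons, was the most abundant of the other imprinted genes named by the rule. It was at 4556, 5800 and 5905 in WT and 12453, 10773, 12277, 13157 and 16243 in KO, and in the OE line at 11070, 11278 and 10730 without Dox and 1902, 1940 and 1506 with Dox. The groups formed 3 separate levels, with KO and OE without Dox together at the top. The log2 fold was 1.26 in KO against WT, 1.03 in OE without Dox against WT and -2.64 with doxycycline (limma adjusted p = 2.4e-06, 0.00030 and 5.3e-10). BLCAP, on the opposite strand around NNAT, followed with 0.77, 0.69 and -1.29. NNAT (chromosome 20, 37521206 to 37523690) lies within the bounds of BLCAP (37492472 to 37527931). Whether their exons share bases was not measured, and the strand setting of the counting is not given. Over the same groups the neuronal marker sum took the same order, as given above, and its part in these levels was not tested.

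GRB10, an adaptor that restrains insulin and IGF receptor signalling, was the only gene with a mean of at least 50 on this list that was called higher with doxycycline without overlap. It was at 734 to 1150 in WT and 755 to 1004 in KO, and in the OE line at 850 to 959 without Dox and 1511 to 2134 with Dox, with a log2 fold of 1.07 (SE 0.17, limma adjusted p = 0.00012). DLX5, a homeobox gene of ventral forebrain neurons that is also one of the 14 MGE and forebrain markers, fell with doxycycline from 126 to 250 down to 36.0 to 63.2 (-1.98, limma adjusted p = 1.4e-05). INPP5F fell by 0.65, NAP1L5 by 0.79, L3MBTL1 by 0.60 and ZDBF2 by 0.59 on the log2 scale, with limma adjusted p of 0.00048, 0.0059, 0.023 and 0.036. The calls for L3MBTL1 and ZDBF2 were lost in 4 and 5 of 18 alternatives, with adjusted p up to 0.103 and 0.145.

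**Figure D4:**
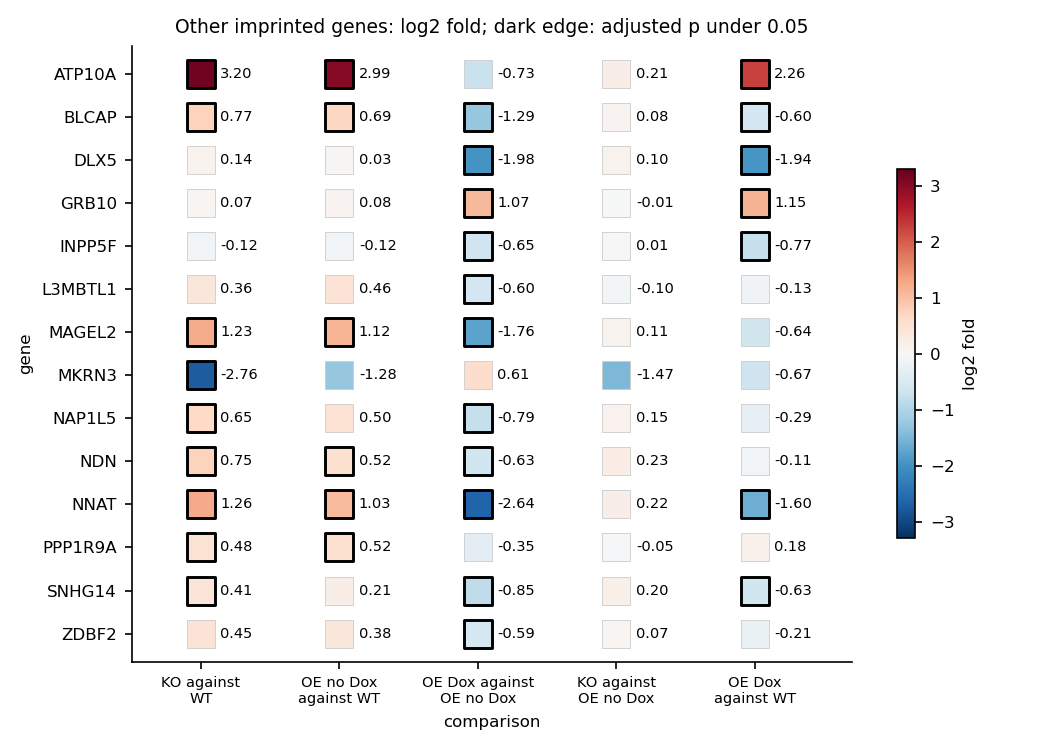
Log2 fold from limma (colour and printed value) of the 14 other imprinted genes named by the rule in 5 comparisons, with a dark edge where the adjusted p is under 0.05. ATP10A and MKRN3 show opposite signs against WT (3.20 and -2.76 in KO), and NNAT, MAGEL2 and BLCAP change sign between KO against WT and OE with Dox against OE without Dox.

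Of 20 listed genes that set or maintain imprints and DNA methylation, 15 were tested. In the main limma fit, with no block, 0 were called in KO against WT, 0 in OE without Dox against WT and 0 in KO against OE without Dox. At an unadjusted p under 0.05 there were 4, 2 and 2. edgeR called 0, 1 higher and 0, and DESeq2 1 higher, 1 higher and 0. These counts stand beside 13.8%, 5.74% and 2.11% of all genes called. With the replicate number as a block, limma called 2 of the 15 higher and 2 lower in KO against WT, where 2483 of all 17102 genes were called. They were ARID4A (adjusted p = 0.015) and TET3 (0.0451), higher, and DNMT1 (0.0115) and UHRF1 (0.0144), lower. In the other 2 comparisons the block called 0. With doxycycline 4 fell and none rose, against 12.9% of all genes lower and 12.8% higher. DNMT3B, a de novo methyltransferase that is also on the pluripotency list, fell from 272 to 302 down to 103 to 130 (log2 fold -1.30, limma adjusted p = 3.4e-05), and HELLS, a chromatin remodeller needed for methylation, from 518 to 644 down to 269 to 386 (-0.77, adjusted p = 0.0032). TET2 and TET3, which oxidise methylated cytosine, fell by 0.52 and 0.74 on the log2 scale (limma adjusted p = 0.0088 and 0.021). In OE with Dox against WT 2 fell, against 10.1% of all genes: DNMT3B and HELLS (log2 fold -0.93 and -0.56, limma adjusted p = 0.0013 and 0.032). DNMT1, which copies methylation at replication, was at 1127 to 1369 in WT and 648 to 1163 in KO. It was not called in the main fit of any comparison (limma adjusted p = 0.15 in KO against WT, and 0.0115 with the block). ZFP57, a zinc finger protein that protects imprints, had 1 read in 1 library and none in the others, while ZNF445, with a related role, was at 570 to 1036 (log2 fold with doxycycline -0.43, limma adjusted p = 0.0799, and 0.0140 with the replicate number as a block).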

How the data were processed

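RNA was sequenced from 14 libraries of H9-derived MGE-like progenitors, and the deposited table gives, per Ensembl gene and library, a normalized signal. Gene counts were divided by 1 size factor per library by the authors, as the values themselves show: in each library they are whole multiples of 1 step (0.866 to 0.947 per read), and 100% come out whole at a tolerance of 0.01. Build hg38 and the tools HTSeq 0.9.1, TopHat2 2.1.1, DESeq2 and R 3.4.0 are named, with no roles, per the submitters' processing notes. The annotation release and strand setting are not given in the sources used here.

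Names, exons and coordinates are from GENCODE 44. Genes at 10 or more in at least 3 libraries (17102) were tested with limma 3.58.1 in R 4.3.3 on log2(normalized count + 1), in 1 model of 4 groups with trend and robust empirical Bayes, two-sided, with Benjamini-Hochberg adjustment over all tested genes at 0.05. A log2 fold on this scale understates the change of low genes. Recovered reads, 5233270 to 5639725 per library, went into edgeR 4.0.16 and DESeq2 1.42.0 as alternatives, beside upper-quartile or TMM scaling, a filter of 50 or none, pseudocounts of 5 and 0.5, the 2 compared groups alone, a replicate block, no robust option, and each library left out. Leaving out the second libraries of WT and both OE groups together was added after seeing the data. Groups share replicate numbers, whose meaning the labels do not give. By the deviations from group means, with a pair taken to hold over 0.1, the numbers paired libraries in OE without Dox against WT (r of 0.175 to 0.283 over 3 pairs) and in OE with Dox against OE without Dox (0.220 to 0.402), and not in the other comparisons. The scripts were tested on simulated data. Tables used pandas 2.3.3 and numpy 2.4.6 in Python 3.11.15, and figures matplotlib 3.10.9.

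The members and the lists (other imprinted genes, imprint maintenance, IGF signalling, markers) were chosen with earlier results of these data known. The text names all members, other imprinted genes called without overlap with a mean of at least 50, tested neighbours of members, up to 4 called genes per comparison of the maintenance and IGF lists, and the 2 genes most correlated with each member. Correlations and gene lists carry no p-value. 1 gene of the MGE and forebrain list is counted in its sum and not reported by name here.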

Additional observations from a re-analysis of the deposited data

Results flagged for a closer look

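In KO, the only group with enough libraries for a check of outlying samples, the fifth library stood apart for MEG3 and CDKN1C among the 8 tested members. MEG3 was at 58.16 in that library, and its gap to the next library was 0.742 of the whole range of the group, above the critical value of 0.710 (Dixon). CDKN1C was at 1288 there, with a gap of 0.753 of the range. Chance flags about 1 in 20 such groups, and 8 were examined. The same library was also the highest of its group in DLK1 (8651) and PLAGL1 (483), without passing the check (gap 0.438 and 0.560 of the range). Neither MEG3 nor CDKN1C was called in KO against WT with it (limma adjusted p = 0.078 and 0.472) or without it (0.169 and 0.715).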

How the results depend on the processing

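Calls that held in every alternative were those of PLAGL1 in all 3 comparisons with WT, of PEG10 in KO against WT and in both comparisons of OE with Dox, and of MEST in both comparisons of OE with Dox. Over all 747 values of single members under alternatives, 670 kept direction and side of the threshold, 38 lost a call, 27 gained one and 12 changed sign, and over 612 values of other imprinted genes 575 kept both and 37 lost a call. The cause was not tested. DESeq2 called 5 members in KO against WT (main 3). With no filter, or with the second libraries of WT and both OE groups left out, 3 members were called with doxycycline (main 5). With those libraries left out, 561 of all genes were called in OE without Dox against WT (main 982), and in KO against OE without Dox 156 genes (main 360) and 0 members (main 1). Leaving out 1 library at a time gave 2 to 4 members called in KO against WT, 3 to 5 with doxycycline, 0 to 1 in KO against OE without Dox and 3 to 5 in OE with Dox against WT. Over all genes it gave 1637 to 2305, 3352 to 3968, 180 to 353 and 2853 to 3219 in the same order, and 421 to 869 in OE without Dox against WT, where the lowest count came without the first OE without Dox library, 479 without the third WT library and 548 without the third OE without Dox library. In KO against OE without Dox the count of 180 came without the second OE without Dox library.

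None of the changes of sign concerned a called value. Leaving out 1 library at a time, SNRPN in OE without Dox against WT ranged from -0.21 to 0.12. In KO against OE without Dox, IGF2 ranged from -0.84 to 0.081 (0.081 also with all second libraries left out), MEG3 from -0.036 to 1.02, DLK1 from -0.11 to 0.47 and CDKN1C from -0.28 to 0.19 (0.19 also without the second libraries). MEG3 in OE with Dox against WT ranged from -0.091 to 0.41, and was -0.069 without the second libraries. The sign changed without the third OE without Dox library for SNRPN, the second for IGF2, the first for MEG3 and DLK1, the second or the third or 1 of the first and the third KO libraries for CDKN1C, and without the second OE with Dox library for MEG3 against WT.

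Replicate numbers are shared between groups. Deviations from group means correlated at -0.289 to 0.402 (median 0.170) over 18 same-numbered pairs, 12 of them over 0.1, and at -0.300 to 0.435 (median -0.0845) over 36 others. Of 12 libraries, 10 correlated best with their own number. All 3 pairs were over 0.1 in OE without Dox against WT and in OE with Dox against OE without Dox, and 2 of 3 in each comparison of KO and 1 of 3 in OE with Dox against WT. The fourth and the fifth KO libraries have no partner and add nothing to a comparison fitted with the block. With the replicate block 2483 genes and 4 members were called in KO against WT, and 4921 genes and 7 members with doxycycline. IGF2 (-0.89, adjusted p = 0.0311) in KO against WT, CDKN1C (-0.62, 0.0429) and SNRPN (-0.49, 0.0369) with doxycycline, PLAGL1 (-0.53, 0.0481) in KO against OE without Dox and IGF2 (1.87, 0.000156) in OE with Dox against WT gained a call in limma with the block, and PEG10 in KO against OE without Dox lost it (0.57, 0.0846). In the 2 comparisons that the numbers pair, the block changed no other call of a member or other imprinted gene than those of CDKN1C, SNRPN, DIO3 and MKRN3. In KO against WT it called 8 other imprinted genes higher and 3 lower (12 and 1 without it), with KCNQ1 (0.0883) lost and SLC22A18 (0.0236) gained. Of the maintenance list, ARID4A (0.015) and TET3 (0.0451), both higher, and DNMT1 (0.0115) and UHRF1 (0.0144), both lower, gained a call there.

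Depth limits MEG3, which rests on 35 reads over the 3 WT libraries, and sets the floor for H19 and PEG3. Shared exons limit IGF2, SNRPN, MEST and PEG3, of which 44.4%, 43.9%, 27.6% and 50.9% of exon bases overlap other genes.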
